A study of Mus musculus with 7 samples.

Results

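The myosin light chains of muscle and the kinases that phosphorylate them were examined in quadriceps muscle of AR113Q mice, a knock-in model of spinal and bulbar muscular atrophy (SBMA), before the onset of motor dysfunction. The group was defined by name as 9 genes (Myl1, Myl2, Myl3, Myl4, Myl6b, Mylpf, Mylk, Mylk2 and Mylk4), and every array probe that carried one of these names was taken, which gave 12 probes of 39429. Tests were run on the 21002 probes that stood clearly above background on 3 or more of the 7 arrays. All 12 were among them, and 10 of the 12 were well above background on every array. Total RNA of quadriceps from C57BL/6 mice aged 3 months was hybridized to single-color Agilent mouse arrays, 1 array per mouse, with 4 WT and 3 AR113Q mice. AR113Q mice carry a knock-in allele with an expanded polyglutamine tract, whose expression is not restricted to muscle. The labels and figure legends call the controls WT, whereas the text of the study describes knock-in mice with a tract of normal length, so what the controls carry is not settled here. Sex, litter and treatment are not given in the labels.

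Each myosin motor head in a sarcomere is wrapped by an essential and a regulatory light chain, which stiffen its lever arm. Fast fibers use the products of Myl1 (the essential chains MLC1f and MLC3f, made from alternative promoters of the gene) and Mylpf (the fast regulatory chain), and slow fibers use Myl3 (essential) and Myl2 (regulatory). In skeletal muscle, Ca2+ and calmodulin activate the kinase encoded by Mylk2, which phosphorylates the regulatory chain and increases force at submaximal Ca2+, and a myosin phosphatase removes the phosphate.

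The probes that carried the main differences are shown 5′ to 3′, so that the part of each transcript that was read can be seen. The array annotation gives positions on mm9. Myl1 had a probe whose only curated RefSeq transcript in the annotation is that of MLC3f (a predicted RefSeq transcript and Ensembl transcripts are also listed), which lies near the start of it and has no genome position, and a probe assigned to both MLC1f and MLC3f, which starts at base 856. The annotation places the second probe on the minus strand of chr12:102460006-102460065, whereas the RefSeq gene table has Myl1 on chromosome 1 and a related pseudogene, Mylf-ps, on chromosome 12. Transcript sequences were not used here, so how many bases of the MLC3f probe are also present in MLC1f, and what the pseudogene adds to the shared probe, was not tested. The probe names follow the annotation, so a change in the MLC3f probe is not read as a change of MLC3f alone. The MLC3f probe is printed whole, and 30 bases of each other probe are printed. Capitals mark the AATAAA hexamer that precedes many polyadenylation sites, which was found in the Mylk2 probe and places it near a transcript end.
Myl1, MLC3f probe, bases 1 to 60: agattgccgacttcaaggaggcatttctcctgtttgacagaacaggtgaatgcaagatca
Myl1, shared probe, bases 1 to 30: ttataagccttgagttttcatgacaaacat
Mylpf, main probe, chr7:134355191-134355250, bases 1 to 30: tataaccccagaagaactgctccaagcaga
Mylpf, predicted variant X1 probe, chr7:134352835-134352894, bases 1 to 30: aatagtcagtgacaaccagagacaagcgcg
Mylk4, chr13:32800748-32800807, minus strand, bases 1 to 30: caactctggtgttctgaacctcacgaccaa
Mylk2, chr2:152748725-152748784, bases 2 to 31: ttgtgccttgtaAATAAAaacacaggttgg

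The 7 arrays were of similar quality, with 47.7% to 55.9% of probes well above background and 0 saturated spots on each. The skeletal muscle markers Acta1, Ckm, Des, Ttn, Actn2, Mb, Tcap and Neb were all measured, with 1 of 8 (Actn2) higher in AR113Q mice, 7 not called and a median log2 fold change of -0.13. Among the 7, Ckm (-0.80, adjusted p = 0.0101) and Ttn (-0.66, adjusted p = 0.0264) passed the adjusted p under the fold threshold. Of 6 cardiac markers, Mybpc3, Nppa and Nppb were too dim to be tested, and none of the other 3 was called. The arrays lay on 5 slides, and only 1 slide held both genotypes (WT 2 and AR113Q 1). For the members that passed the test, the difference between those 2 arrays is therefore given beside the comparison of all 7.

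Signals below are log2 of the background-subtracted intensity after quantile normalization, compared only within a probe. A probe was called when the limma test gave a Benjamini-Hochberg adjusted p of at most 0.05 and the log2 fold change (AR113Q minus WT) was at least 1 in size. In AR113Q muscle, 3 of the 12 probes were downregulated (Myl1 MLC3f, Mylpf and Mylk4) and 0 were upregulated. The only probe higher at an unadjusted limma p under 0.05 was a dim Mylk probe. It passed the background filter through the group where it is high, so it is not read as a difference. The background was wide, because 24.8% of all tested probes were called, 12.6% lower and 12.2% higher. Without the fold threshold, 5 of the 12 probes had an adjusted p of at most 0.05, against 43.8% of all tested probes. The genotypes did not overlap for 7 of the 12 probes, that dim Mylk probe included, against 49.6% of all tested probes. The median log2 fold change was -0.69 over the 12 probes and 0.01 over all tested probes, and 9 of the 12 were negative. In RNA of whole muscle, less RNA per fiber and fewer fibers of a type cannot be told apart.

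**Figure D1:**
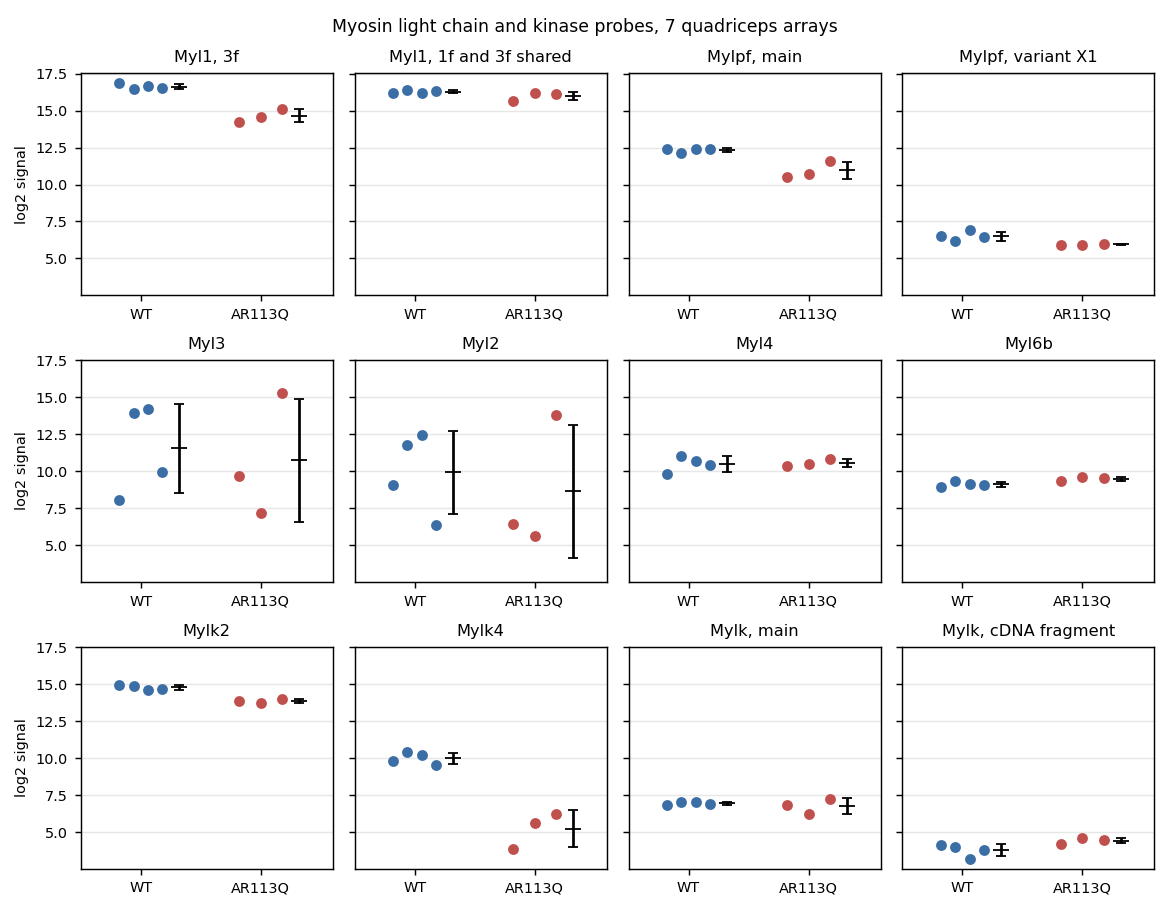
Log2 signal (vertical axis, 1 point per array) of each of the 12 probes in WT (blue, n = 4) and AR113Q mice (red, n = 3), with the mean and SD in black beside the points. The groups are well separated for the Myl1 MLC3f probe, the main Mylpf probe, Mylk2 and Mylk4, whereas Myl2 and Myl3 range widely within both genotypes.

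Among the essential light chains, the Myl1 probes disagreed. The log2 signal of the MLC3f probe was 16.84, 16.44, 16.65 and 16.52 in WT mice 1 to 4 and 14.25, 14.54 and 15.13 in AR113Q mice 1 to 3. Every AR113Q array was lower than every WT array. The signal fell by 1.97 on the log2 scale (SE 0.23, 95% interval of the change -2.5 to -1.45), or was 3.93-fold lower in AR113Q mice (adjusted p = 0.000484). On the slide that held both genotypes the difference was -2.19. The probe shared by MLC1f and MLC3f gave 16.17, 16.38, 16.17 and 16.30 in WT mice and 15.66, 16.16 and 16.15 in AR113Q mice. The groups did not overlap, but the gap between the closest arrays was small and the log2 fold change of -0.27 (SE 0.18, 95% interval -0.67 to 0.14) did not pass the test (adjusted p = 0.253). With scaling to the 75th percentile in place of quantile normalization the shared probe gave -0.55 (adjusted p = 0.0565), and on the common slide it differed by -0.72.

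The disagreement was examined as a difference within each array. The MLC3f probe minus the shared probe was 0.67, 0.06, 0.48 and 0.22 in WT mice and -1.41, -1.62 and -1.02 in AR113Q mice on the log2 scale. The difference was lower on every AR113Q array than on every WT array, and only this change between genotypes is read, not its sign within an array. It changed from 0.36 ± 0.27 (SD, n = 4) to -1.35 ± 0.30 (SD, n = 3), a change of -1.71. The exact two-sided permutation test gave p = 0.0571, the smallest value that the 35 splits of 4 and 3 arrays allow, and 0.229 after adjustment over the 6 within-array differences examined, so this design cannot pass a threshold of 0.05. A limma fit over all 5368 pairs of tested probes of a gene, added after the data were examined, gave an SE of 0.21 and an adjusted p of 0.00141, in a background where 21.8% of pairs passed. Both probes were well above background and not saturated on all 7 arrays. They also differ in position, with the MLC3f probe near the transcript start and the shared probe starting at base 856. The part of probe position and of RNA integrity in the disagreement was not tested.

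Myl3, the essential chain of slow fibers and of the ventricle, varied among mice of the same genotype. Its log2 signal (chr9:110672238-110672297) was 8.09, 13.93, 14.20 and 9.98 in WT mice and 9.71, 7.18 and 15.32 in AR113Q mice. It was high in WT mice 2 and 3 and in AR113Q mouse 3, and low in the other 4 mice. Within genotype the signal ranged over 68.9-fold in WT and 282-fold in AR113Q mice. Between genotypes the difference of -0.81 (SE 2.09, 95% interval -5.61 to 3.99) did not pass the test (adjusted p = 0.777), and the interval holds large changes in either direction.

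Myl4, the atrial and embryonic essential chain, gave 9.83, 11.06, 10.67 and 10.46 in WT mice and 10.33, 10.52 and 10.86 in AR113Q mice. The groups overlapped, and the change of 0.07 (adjusted p = 0.863) turned negative under some settings. Myl6b, an essential chain of slow and non-muscle myosin, gave 8.96, 9.34, 9.14 and 9.07 in WT mice and 9.33, 9.60 and 9.57 in AR113Q mice. All but 1 of the AR113Q arrays lay above every WT array, and AR113Q 1 lay just under WT 2. The log2 fold change of 0.37 was the largest increase among member probes well above background on all 7 arrays, and it did not pass the test (adjusted p = 0.0965).

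Among the regulatory light chains, the main Mylpf probe was downregulated. It starts at base 69 of the transcript. Its log2 signal was 12.40, 12.10, 12.40 and 12.39 in WT mice and 10.53, 10.72 and 11.61 in AR113Q mice. Every AR113Q array was lower than every WT array, and AR113Q 3 was the closest to WT. The signal of the main probe fell by 1.37 on the log2 scale (SE 0.26), 2.58-fold (adjusted p = 0.004). The difference on the common slide was -1.57. Like the Myl1 MLC3f probe, the main Mylpf probe lies near the transcript start, whereas the called Mylk4 probe lies farther along its transcript. The part of probe position and of RNA integrity in the Mylpf change was not tested. The second Mylpf probe reads a predicted variant, X1, at a position upstream of the main probe on the same strand, and gave 6.52, 6.17, 6.91 and 6.45 in WT mice and 5.91, 5.94 and 5.99 in AR113Q mice. It was also lower on every AR113Q array, with a log2 fold change of -0.57 (SE 0.19, adjusted p = 0.0433) that was under the fold threshold. For this dim probe the change was -0.32 with normexp correction (adjusted p = 0.0565) and -0.21 in the authors' normalized values (adjusted p = 0.0795), and on the common slide it was -0.26. The main probe minus the variant probe changed by -0.80 between genotypes, with overlapping groups (exact two-sided permutation p = 0.114, adjusted over 6 differences 0.229). In the limma fit over all probe pairs the same change had an adjusted p of 0.0603. This difference depended on the processing: it was -1.0 with normexp correction and -1.1 in the authors' normalized values, without overlap between groups (exact two-sided permutation p = 0.0571 for each, the smallest possible), and -0.5 with scaling to the 75th percentile (exact permutation p = 0.229).

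Myl2, the regulatory chain of slow fibers and of the ventricle, followed Myl3. Its log2 signal (chr5:122556732-122556791) was 9.09, 11.81, 12.45 and 6.35 in WT mice and 6.46, 5.65 and 13.82 in AR113Q mice. WT mice 2 and 3 and AR113Q mouse 3 were again the highest, and the range within genotype was 68.6-fold in WT and 287-fold in AR113Q mice. The mean difference of -1.28 (SE 2.13, 95% interval -6.16 to 3.61) did not pass the test (adjusted p = 0.655).

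The same 3 arrays were the highest for 4 of the 12 member probes (Myl2, Myl3, Myl4 and the main Mylk probe) and for other genes of slow fibers. Of 9 slow-fiber genes in the list, 5 (Myh7, Tnnt1, Tnni1, Tnnc1 and Myoz2) had WT 2, WT 3 and AR113Q 3 as their highest arrays, against 2.39% of all 16554 genes measured on every array. Myh7, the slow myosin heavy chain, gave 4.95, 12.56, 11.89 and 6.66 in WT mice and 6.66, 6.22 and 13.59 in AR113Q mice. Among fast-fiber genes, 2 of 9 (Myh1 and Myh2) had the same 3 arrays highest. Among WT mice the fast chains did not follow this pattern, and the Myl1 probes and the main Mylpf probe were nearly level across the 4 WT mice, with within-WT ranges of 1.16-fold to 1.32-fold. Within AR113Q mice the MLC3f probe ranged over 1.84-fold and Mylpf over 2.1-fold, and AR113Q 3, on which slow-fiber genes were high, was the highest AR113Q array for both. Which part of the quadriceps was sampled in each mouse is not given in the labels, and its part in these differences was not tested.

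**Figure D2:**
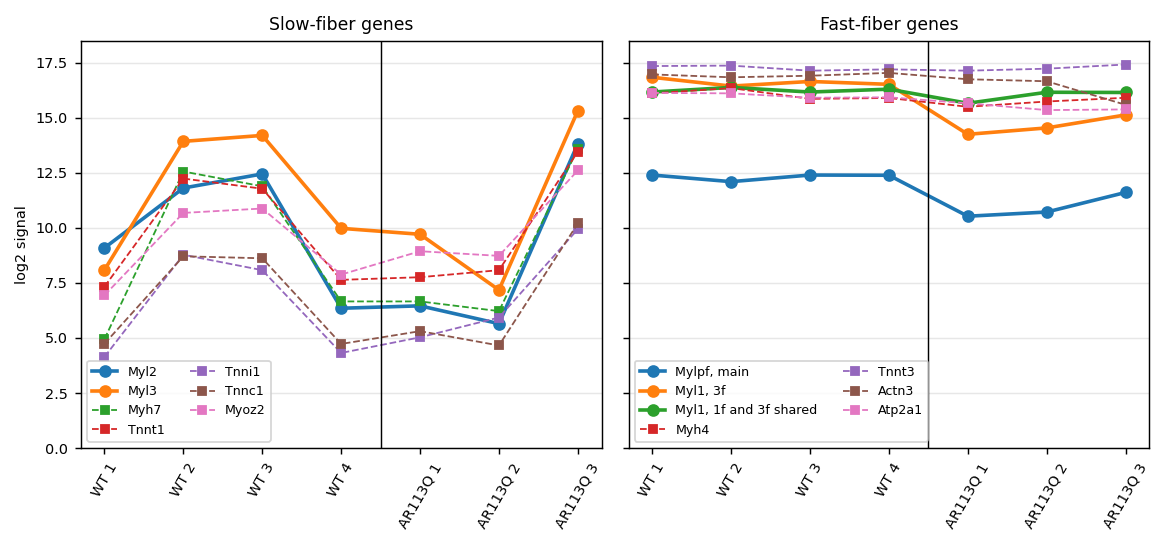
Log2 signal (vertical axis) on each of the 7 arrays (horizontal axis, WT left of the line and AR113Q right of it) for slow-fiber genes (left) and fast-fiber genes (right), with the light chains as solid lines and other genes of the same fiber type as dashed lines. Myl2 and Myl3 peak on WT 2, WT 3 and AR113Q 3 together with Myh7 and the slow troponins, whereas the Myl1 MLC3f and Mylpf probes drop on the AR113Q arrays.

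With the mean of the slow-fiber list as a covariate, the log2 fold change was -2.18 for Myl2 (adjusted p = 0.0687) and -1.72 for Myl3 (adjusted p = 0.0888). Without WT 2, WT 3 and AR113Q 3, it was -1.68 for Myl2 (adjusted p = 0.18) and -0.60 for Myl3 (adjusted p = 0.65). None of these passed the test, and all were negative. The 3 called probes were as large without those arrays, at -2.25 for the Myl1 MLC3f probe, -1.76 for Mylpf and -5.02 for Mylk4. Both alternatives were added after the data were examined.

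Ratios of slow to fast chains within an array were compared by role. The regulatory difference, Myl2 minus Mylpf, was -3.31, -0.29, 0.05 and -6.04 in WT mice and -4.07, -5.07 and 2.21 in AR113Q mice. The groups overlapped, and the change of 0.09 was small against the spread (exact two-sided permutation p = 0.914). For the essential chains, Myl3 minus the shared Myl1 probe changed by -0.55 (exact permutation p = 0.971) and Myl3 minus the MLC3f probe by 1.16 (exact permutation p = 0.743). No shift between slow and fast light chains was detectable, since the spread between mice of 1 genotype was larger than these changes. Over the 6 within-array differences the adjusted p was 0.971 for all 3.

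Of the kinases, Mylk4 showed the largest decrease of the 12 probes. Mylk4 encodes a myosin light chain kinase family member of striated muscle. Its log2 signal was 9.84, 10.39, 10.22 and 9.56 in WT mice and 3.86, 5.61 and 6.26 in AR113Q mice. The lowest WT array was above the highest AR113Q array by more than the whole spread of either group. The log2 fold change was -4.76 (SE 0.51, 95% interval -5.94 to -3.58), an estimated 27.1-fold (adjusted p = 0.00038). The probe was well above background on 4 of 4 WT arrays and on 2 of 3 AR113Q arrays, not on AR113Q 1, so the size of the change depends on how low signals are treated and the fold is no exact value. The difference on the common slide, -6.53, rests on AR113Q 1 and has the same limit. Without AR113Q 1 the log2 fold change was -4.01. Over all arrays it was -2.99 with normexp background correction and -2.49 in the authors' normalized values, still past both thresholds.

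Mylk2, the skeletal muscle kinase of the regulatory chain, gave 14.98, 14.89, 14.58 and 14.70 in WT mice and 13.85, 13.75 and 13.98 in AR113Q mice. The groups did not overlap, and each was tight. The log2 fold change was -0.93 (SE 0.16, 95% interval -1.29 to -0.56), a signal 1.9-fold lower in AR113Q mice (adjusted p = 0.00259), with -1.04 on the common slide. This change passed the test and lay just under the fold threshold, so Mylk2 was not called. Without WT 2, WT 3 and AR113Q 3 it was -1.02 and passed both thresholds.

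Mylk, the smooth muscle and non-muscle kinase, had 2 probes. The main probe (chr16:35001266-35001325) gave 6.82, 7.02, 7.04 and 6.94 in WT mice and 6.86, 6.20 and 7.27 in AR113Q mice. The groups overlapped, and their difference of -0.18 (SE 0.25) did not pass the test (adjusted p = 0.578). The second probe (chr16:34953958-34954017) reads a cDNA clone assigned to Mylk and was well above background on 1 of 4 WT and 2 of 3 AR113Q arrays. It gave 4.13, 3.99, 3.21 and 3.83 in WT mice and 4.23, 4.60 and 4.45 in AR113Q mice, and did not pass the limma test (adjusted p = 0.0601). It passed the filter through the group where it is high and was not well above background on most WT arrays, so no size is given for it. Between the Mylk probes the groups overlapped for the within-array difference (exact two-sided permutation p = 0.114). That difference rests on the same dim probe and is not read. Smooth muscle markers were also measured: 0 of 7 rose and 2 (Smtn and Synpo2) fell, with a median log2 fold change of -0.68. The defining markers Acta2 and Tagln had log2 fold changes of -0.74 and -0.63, under the fold threshold, and Myh11, at 0.25, did not pass the test. The part of these markers in the Mylk values was not tested.

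**Figure D3:**
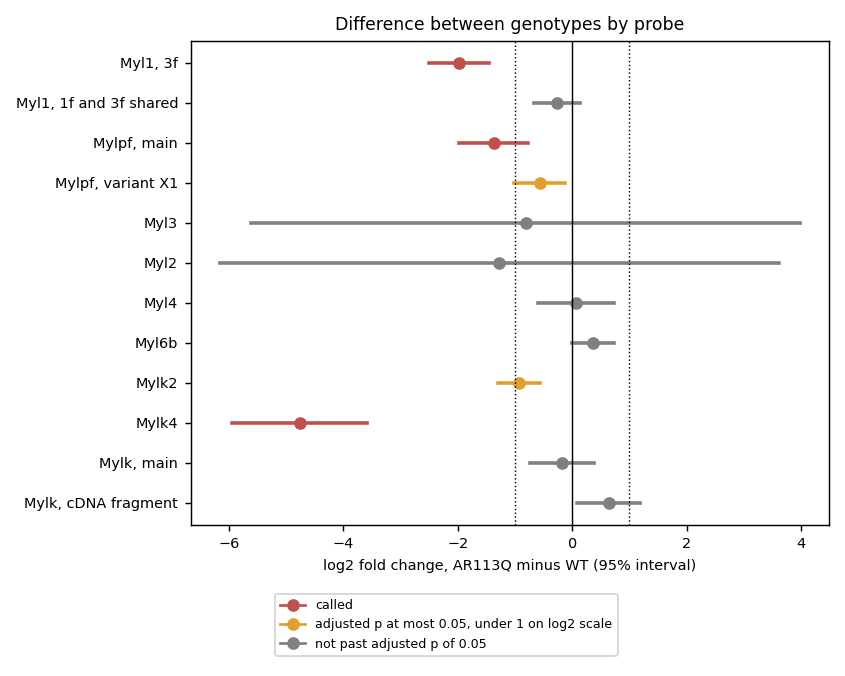
Log2 fold change, AR113Q minus WT (horizontal axis), of the 12 probes with the 95% interval of the limma fit (bars); dotted lines mark -1 and 1, red marks called probes, and orange marks probes that passed the adjusted p but not the fold threshold. Mylk4 lies farthest to the left at -4.76, and the intervals of Myl2 and Myl3 span several log2 units on both sides of 0.

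The bases upstream of Mylk4 and Mylpf are shown because a probe of each gene was called lower in AR113Q muscle. Myl1, the other gene with a called probe, is not printed, because its probes disagreed and the table gives 1 window for a gene with alternative promoters; that window held 1 E-box, 0 AGAACA and 0 MEF2 boxes. They are the 250 bases before the gene start, from RefSeq on GRCm38.p6, in transcript direction. Capitals mark the E-box CANNTG (the core bound by MyoD family factors), AGAACA (a hexamer of glucocorticoid response elements) and the MEF2 box, searched on both strands with no overlap between motifs in these windows.
Mylk4, chr13:32783965-32784214, minus strand: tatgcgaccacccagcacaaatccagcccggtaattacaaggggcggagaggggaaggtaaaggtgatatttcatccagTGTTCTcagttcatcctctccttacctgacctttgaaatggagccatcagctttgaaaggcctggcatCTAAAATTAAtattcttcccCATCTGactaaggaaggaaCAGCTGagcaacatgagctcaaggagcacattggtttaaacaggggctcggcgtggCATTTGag
Mylpf, chr7:127211358-127211607, plus strand: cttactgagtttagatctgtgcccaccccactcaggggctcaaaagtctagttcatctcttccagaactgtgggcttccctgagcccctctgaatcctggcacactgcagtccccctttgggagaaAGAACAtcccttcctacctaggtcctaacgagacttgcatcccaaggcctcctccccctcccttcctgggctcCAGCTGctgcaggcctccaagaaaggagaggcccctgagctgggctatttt

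Windows were found for 8 of the 9 genes (9 windows, since Myl2 had more than 1). The Mylk4 window held 3 E-boxes, 1 AGAACA and 1 MEF2 box, which lay 93 bases before the start, and it was the only member window with a MEF2 box. Of 32851 windows in the table, 2.92% held a MEF2 box, 16.1% AGAACA and 66.2% an E-box. Among the member windows, 7 of 9 held an E-box and 4 of 9 (Myl4, Mylk, Mylk4 and Mylpf) held AGAACA. Genes with AGAACA thus included genes with a downregulated probe and genes not called, and Myl1, also with a downregulated probe, had none in its window. These are matches of letters in a window and do not show binding.

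The other light chains were read in the same fit, each gene by its brightest tested probe, a scale on which 24.3% of genes were called, 11.2% higher and 13.1% lower. Of 8 genes in the list 6 were tested (Myl7 and Mylk3 were too dim), and 2 rose, 1 fell and 3 were not called. Myl12a, a regulatory chain of non-muscle myosin, rose by 1.06 on the log2 scale (adjusted p = 0.00252), close to the fold threshold, and was not called without AR113Q 3 (0.96), WT 1 (0.99) or WT 4 (0.99). Mylip rose by 1.13 (adjusted p = 0.0121), although it encodes a ubiquitin ligase known for degrading the LDL receptor and not a light chain, and was not called without AR113Q 3 (0.77). Myl9, the regulatory chain of smooth muscle, fell by 1.21 (adjusted p = 0.00329), and was not called without AR113Q 2 (-0.98). Of the smooth muscle markers given above, Smtn and Synpo2 fell and the others were not called. Myl6, the essential chain of smooth and non-muscle myosin, and Myl12b, another non-muscle regulatory chain, had log2 fold changes of -0.52 and -0.82, past the adjusted p but under the fold threshold, and Myl10, at 1.08, did not pass the test.

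Genes that control phosphorylation of the regulatory chain were all tested, and of 15, 1 rose, 3 fell and 11 were not called. Calm2, a gene for calmodulin, which activates the light chain kinases, fell by 1.6 (adjusted p = 0.000896). Calm3, another calmodulin gene, had a log2 fold change of -0.85, past the adjusted p (0.0121) and under the fold threshold. Ppp1r14a, which encodes an inhibitor of myosin phosphatase, fell by 1.77 (adjusted p = 0.000149), but this was -0.88 with normexp correction and -0.62 in the authors' normalized values, both under the fold threshold. Smtnl1, which encodes a smoothelin-like protein that binds myosin phosphatase, rose by 2.0 (adjusted p = 0.0126), although the arrays of the common slide differed by only 0.36. The phosphatase subunits Ppp1cb, Ppp1r12a, Ppp1r12b and Ppp1r12c and the kinases Rock1, Rock2 and Dapk3 were among the 11 that were not called, with log2 fold changes between -0.41 and 0.68. Of these, Ppp1r12a (0.58) passed the adjusted p (0.0109), and a second, dimmer probe of it, well above background on 1 of 4 WT and 3 of 3 AR113Q arrays, was called higher (adjusted p = 0.0131). It passed the filter through the group where it is high and was not well above background on most WT arrays, so no size is given for it.

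Fast-fiber genes as a list did not show the change seen with the Myl1 MLC3f and Mylpf probes. Of 9 fast-fiber genes 0 were called with limma, and 1 had an unadjusted p under 0.05. The median log2 fold change was 0.0, and the range was from -0.60 (Actn3) to 0.31 (Myh1). Several of these genes, such as Pvalb, Tnnt3, Tnnc2 and Tnni2, lay at the top of the scale. Quantile normalization sets values there by rank: Tnni2 read 17.78 on WT 1, WT 2, AR113Q 1 and AR113Q 3. A change in such genes can be hidden, and what this does to the median was not tested. Atp2a1, the fast Ca2+ pump, at -0.56, passed the adjusted p (0.0206) but not the fold threshold. Among 8 tested genes of development and denervation, 1 rose (Chrna1, a subunit of the acetylcholine receptor, by 1.77) and 2 fell (Myod1, a myogenic factor, with a log2 fold change of -3.98, and Actc1, cardiac actin, with -2.2). For Actc1 the groups overlapped, with AR113Q 3 (14.0) above WT 2 (13.77), whereas for Chrna1 and Myod1 they did not. Of the 9 slow-fiber genes 1 rose (Atp2a2, the slow Ca2+ pump, by 1.42) and 8 were not called.

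The genes whose profile over the 7 arrays was closest to a member were found by the root mean square difference in log2 signal, each profile centered on its own WT mean, among 13689 genes well above background on all arrays. Closest to the Myl1 MLC3f probe, which had the largest decrease among the 10 member probes well above background on all 7 arrays, were the transcript TC1632043, Cptp (a ceramide-1-phosphate transfer protein), Arhgef10l (a guanine nucleotide exchange factor), Chadl and 2410080I02Rik, with differences of 0.106 to 0.136 and log2 fold changes of -2.10 to -1.84. Among the closest to Myl6b were Gnl2 (a nucleolar GTPase), Impdh1 (an enzyme of guanine nucleotide synthesis), AK007267 and Zfp280c, with differences of 0.043 to 0.074.

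**Figure D4:**
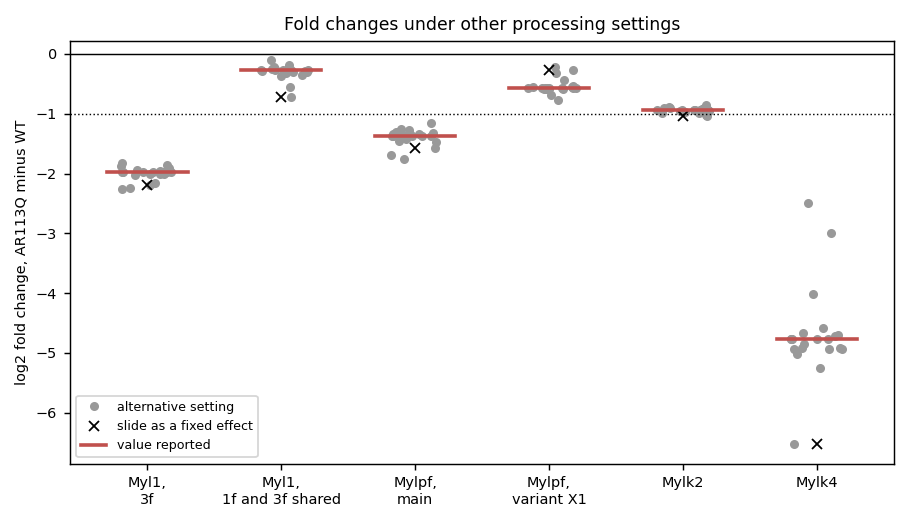
Log2 fold change, AR113Q minus WT (vertical axis), of the 6 probes of Myl1, Mylpf, Mylk2 and Mylk4 under the value reported (red bar) and each alternative processing setting that keeps probes apart (gray points, without the mean over a gene's probes, with slide as a fixed effect as a cross). All points lie below 0, the Myl1 MLC3f and shared probes do not meet under any setting drawn, and Mylk4 spreads from -6.53 to -2.49.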

How the data were processed

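Quadriceps RNA of 4 WT and 3 AR113Q mice was measured on Agilent mouse 4x44K V2 arrays. The authors deposited scanner output from Agilent Feature Extraction 10.7.3.1 (version from the submitters' processing notes), in which the processed intensity of each spot is background-subtracted and detrended within the array. Log2 values deposited by the authors in a separate table were quantile normalized per the study's methods, with their filter on probes not given in the sources used here, and served as an alternative.

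Log2 processed intensities were quantile normalized after removal of control and outlier spots, spots of a probe were averaged, and probes well above background on at least 3 arrays were tested with limma 3.58.1 in R 4.3.3 (lmFit, eBayes), with Benjamini-Hochberg adjustment over 21002 probes. Log2 of background-subtracted signal spreads dim probes, which matters for Mylk4, Mylk and Ppp1r14a. The procedure was tested on simulated data. Symbols were taken through the RefSeq accessions of 28330 probes and otherwise from the array annotation.

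All members are reported with every probe. Pathway genes are named where called, and others are given for context; some measured genes are not reported here. Members and gene lists were chosen with earlier results of these data known. The number of arrays limits the precision. Each array is 1 mouse, and p-values measure the spread between these arrays. Alternatives were other normalizations, background corrections and filters, the unit tested, slide, array weights, replicate number as a block, and each array left out.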

Additional observations from a re-analysis of the deposited data

Results flagged for a closer look

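Of 25 values tested for a lone WT array, 2 had a gap to the nearest array above Dixon's 95% critical value for the ratio to the group's range. Such a test marks about 1 in 20 groups by chance. For the main Mylpf probe (gap 0.964 of the range), WT 2 gave 12.10 and the other WT arrays 12.39 to 12.40, so the gap is small against the fall in AR113Q mice. Without WT 2 the log2 fold change of Mylpf was -1.45. For the main Mylpf probe minus the variant X1 probe (gap 0.868 of the range), WT 3 gave 5.49 and the other WT arrays 5.87 to 5.93.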

How the results depend on the processing

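The 3 calls among member probes (lower in AR113Q) numbered 3 without any 1 array (3 to 3), 2 with the brightest probe per gene (Myl1 then stands by its shared probe), 2 as means over a gene's probes, 2 with probes well above background on all 7 arrays (Mylk4 is not tested) and 4 without WT 2, WT 3 and AR113Q 3 (Mylk2 joins). There were 0 member probes called higher under any alternative run. Without a fold threshold 5 member probes (of 4 genes) and 7 pathway genes were called lower, against 3 and 4. With slide as a fixed effect 0 member probes, 0 pathway genes lower and 0 higher were called, and 0 of all probes passed the adjusted p (7932 at an unadjusted p of at most 0.05), since that fit compares the genotypes within 1 slide only; the adjusted p was 0.0515 for the Myl1 MLC3f probe, 0.0509 for Mylk4 and 0.0569 for Mylpf. Pathway genes called higher (3) were 1 with array weights and 1 to 3 without 1 array, 1 without AR113Q 3 (Myl12a 0.96, Mylip 0.77); those called lower numbered 4 to 4, not always the same genes, since Myl9 (-0.98) was not called without AR113Q 2. As means over a gene's probes, Myl1 was -1.12 (adjusted p = 0.00212) and Mylpf -0.97. Over all probes, 5211 were called, 2088 with normexp and 1592 in the authors' values. The cause of these shifts was not tested.

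Signs changed only for member probes that were not called. Myl2 ranged from -3.85 to 0.23 without 1 array (0.23 without AR113Q 2), and Myl3 from -3.09 to 0.97 (0.97 without AR113Q 2, 0.06 without WT 3). Myl4 was -0.72 with slide as a fixed effect, -0.03 with the slow-fiber covariate and -0.16 to 0.25 without 1 array (-0.16 without WT 1, -0.07 without AR113Q 3, 0.28 without WT 2, WT 3 and AR113Q 3). Myl6b was -0.02 with slide as a fixed effect. The main Mylk probe was 0.23 as the mean over both probes and -0.43 to 0.11 without 1 array (0.11 without AR113Q 2). Slow minus fast differences without 1 array ranged from -2.16 to 1.48 (Myl2 minus Mylpf, -0.04 with 75th percentile scaling), -2.74 to 1.33 (Myl3 minus shared Myl1) and -0.85 to 2.93 (Myl3 minus MLC3f). The MLC3f minus shared difference of -1.71 passed in the limma fit over probe pairs and ranged from -1.89 to -1.58 without 1 array.

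Replicate numbers did not pair the samples: deviations of same-numbered arrays correlated at 0.0403, -0.0159 and 0.155. With the replicate block, 3 member probes were called lower, at -2.0 (Myl1 MLC3f), -4.91 (Mylk4) and -1.34 (Mylpf), and Myl12a, at 1.0, was lost.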
